A study of Mus musculus with 12 samples.

Results

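Divergent protein-coding promoters, where 2 genes start close together and run apart on opposite strands, were examined for MOF peaks in visceral white adipose tissue (WAT) of Mof+/+ mice. The set held 593 peaks, which were chosen by their presence in the Mof+/+ peak list and by a measured width under 2000 bp. They lay on chromosomes 1 to 19 within 1000 bp of both start sites of a pair whose minus-strand start was upstream of its plus-strand start by at most 1000 bp. They made up 3.25% of the 18261 peaks under 2000 bp wide on these chromosomes, called narrow peaks here, out of 19773 Mof+/+ peaks of any width and chromosome. A further 6720 narrow peaks lay within 1000 bp of a coding start without meeting this rule and served as the comparison. Of these, 7 were at a gene of a divergent pair.

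MOF was measured by chromatin immunoprecipitation and sequencing (ChIP-seq). The C57BL/6 mice were 8 weeks old and on a standard diet, and were either wild type (Mof+/+) or heterozygous for Mof in the whole body (Mof+/-). The labels give 12 libraries in 6 groups of 2, which hold MOF ChIP, H3 ChIP or input for each genotype. The results rest on 1 peak list per genotype, so there was no replicate to set an error, and no comparison below is a test between animals. Values come from whole tissue, in which MOF at a site in fewer cells and less MOF per cell cannot be told apart.

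MOF, also named KAT8, acetylates histone H4 as the enzyme of the MSL and NSL complexes, and the NSL complex is known for binding the promoters of broadly expressed genes. Bidirectional promoters share a short, usually CpG-rich stretch of DNA, free of nucleosomes when active, from which transcription starts in both directions. Genes of DNA repair, mitochondria and RNA processing are often arranged this way.

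The DNA between the starts is printed for 8 of the pairs described below, the limit set on their number. They are the most enriched pairs with starts at most 300 bp apart and then textbook pairs with a peak, of which Sdhd-Timm8b was left out by that limit. Each runs on the plus strand from the start of the minus-strand gene to the start of the plus-strand gene, in the GRCm38 patch 6 genome of RefSeq. Capitals mark matches to Sp/Klf (GGGCGG), NF-Y (CCAAT), E-box (CACGTG), Znf143 (ACTACAA) or YY1 (AAGATGGC) letters on either strand. An NF-Y and an Sp/Klf match overlap in the Ap3m1-Adk sequence.
Rbks-Babam2, chr5:31697627-31697684: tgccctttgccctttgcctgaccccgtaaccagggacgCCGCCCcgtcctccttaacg
Spata1-Gng5, chr3:146499753-146499807: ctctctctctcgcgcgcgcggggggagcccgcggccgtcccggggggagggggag
Mepce-Zcwpw1, chr5:137787655-137787798: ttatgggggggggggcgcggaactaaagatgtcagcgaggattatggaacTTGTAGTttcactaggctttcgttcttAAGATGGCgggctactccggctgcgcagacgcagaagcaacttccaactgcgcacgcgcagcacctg
Slc35a5-Atg3, chr16:45158706-45158785: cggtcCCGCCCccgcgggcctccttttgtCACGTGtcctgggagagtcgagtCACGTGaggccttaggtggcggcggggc
Ap3m1-Adk, chr14:21052508-21052574: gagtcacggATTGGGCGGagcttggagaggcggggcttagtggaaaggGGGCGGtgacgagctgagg
Gnptg-Tsr3, chr17:25240124-25240170: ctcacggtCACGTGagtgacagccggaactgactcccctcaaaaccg
Brca1-Nbr1, chr11:101551955-101552149: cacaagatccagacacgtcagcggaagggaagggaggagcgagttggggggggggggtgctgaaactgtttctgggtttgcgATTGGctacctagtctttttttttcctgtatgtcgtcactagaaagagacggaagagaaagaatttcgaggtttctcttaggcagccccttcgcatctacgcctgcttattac
Psmb1-Tbp, chr17:15499751-15499888: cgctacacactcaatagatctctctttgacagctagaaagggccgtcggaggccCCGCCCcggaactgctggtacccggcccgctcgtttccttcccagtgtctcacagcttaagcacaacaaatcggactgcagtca

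The printed stretches were 47 to 195 bp long, with 50.8% to 83.6% G or C. They differed in their letters. The Slc35a5-Atg3 stretch had 2 E-boxes and an Sp/Klf match, the Mepce-Zcwpw1 stretch had a Znf143 and a YY1 match, and the Spata1-Gng5 stretch had no match to any of the 10 motifs searched. A match is a description of the letters only.

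Most divergent promoters carried a MOF peak. The gene models of GENCODE release M21 gave 734 divergent pairs, made of 1448 of the 20807 coding genes. A narrow peak lay within 1000 bp of both starts at 543 pairs, or 74.0% (95% Wilson interval 70.7% to 77.0%). At 21 more pairs the peak was wide, and at 170 no peak met this distance. A promoter without a peak may still bind MOF below the threshold.

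Gene by gene, 73.8% of the 1448 paired genes (71.4% to 76.0%) had a narrow peak within 1 kb of their start. Of the 19359 coding genes in no such pair, 33.2% had one. Part of that distance went with CpG content. The paired genes had a median of 68 CpG dinucleotides within 500 bp of the start, and the 19359 others had 39. Among these, the 17751 genes with no divergent partner of any kind had 34. Among genes with 54 to 84 CpG, the middle 50% of paired genes, the shares were 78.3% (582 of 743; 75.2% to 81.1%) for paired genes and 59.1% (2762 of 4670; 57.7% to 60.5%) for the others. The share for paired genes was thus the higher of the 2 at like CpG count too, by a smaller margin. With under 20 CpG, 16.7% of 48 paired genes (8.70% to 29.6%) and 5.19% of the genes with no partner (4.70% to 5.74%) had a narrow peak.

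**Figure D1:**
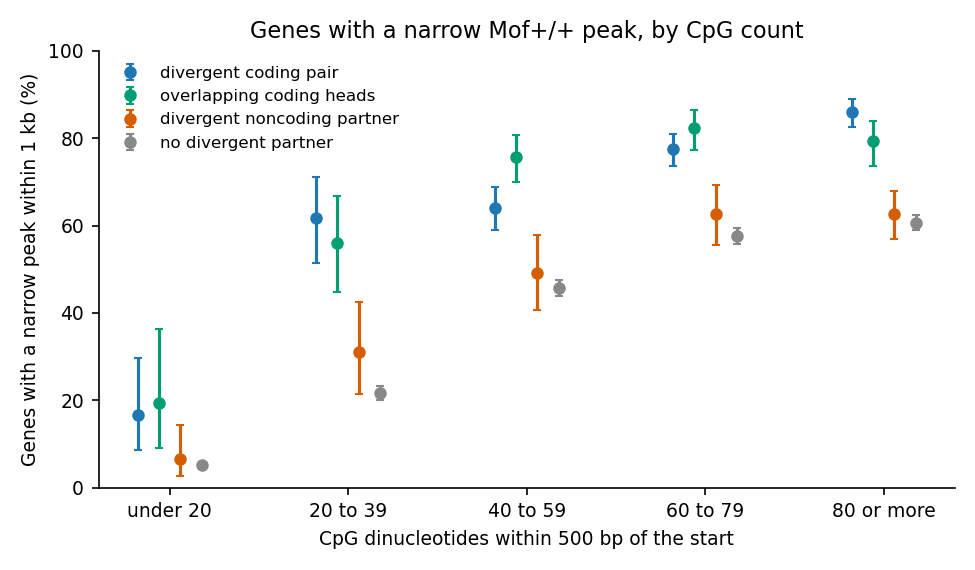
Share of coding genes with a narrow Mof+/+ peak within 1 kb of the start, in percent, by the number of CpG dinucleotides within 500 bp of the start. Points are shares and bars are 95% Wilson intervals, which cover counting error only. In the class of 80 or more CpG, 86.1% of paired genes and 60.7% of genes with no divergent partner had a peak.

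Genes whose heads overlap, with the plus-strand start upstream of the minus-strand start, were close to the divergent pairs in this measure. Of 853 such genes, 75.0% (72.0% to 77.8%) had a narrow peak. Coding genes with a noncoding divergent partner were lower, at 51.7% of 755 (48.1% to 55.2%). The second gene of a pair also adds a gene body to the window that is searched, so the coverage of each gene's own side was counted next.

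At a point 200 bp into the gene, a narrow peak covered 49.4% of the paired genes (46.8% to 52.0%) and 23.2% of genes with no partner (22.6% to 23.8%). Among genes with 54 to 84 CpG the values were closer, and their intervals did not overlap. They were 52.4% of 743 paired genes (48.8% to 55.9%) and 45.6% of 3981 genes with no partner (44.1% to 47.2%). At the start itself the shares were 49.8% and 34.5%, and at 100 bp inside the gene 54.5% and 43.4%. At 400 bp upstream of the start they were far apart, with 46.8% (43.3% to 50.4%) and 20.4% (19.2% to 21.7%), and for a paired gene that point usually lies inside its neighbour. At 600 bp into the gene the order turned, with 19.4% of paired genes (16.7% to 22.4%) and 24.8% of genes with no partner (23.5% to 26.2%). Among these points at like CpG count, the surplus at pairs was widest upstream, on the side that holds the other gene. It was smaller at the start and up to 200 bp inside the gene.

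**Figure D2:**
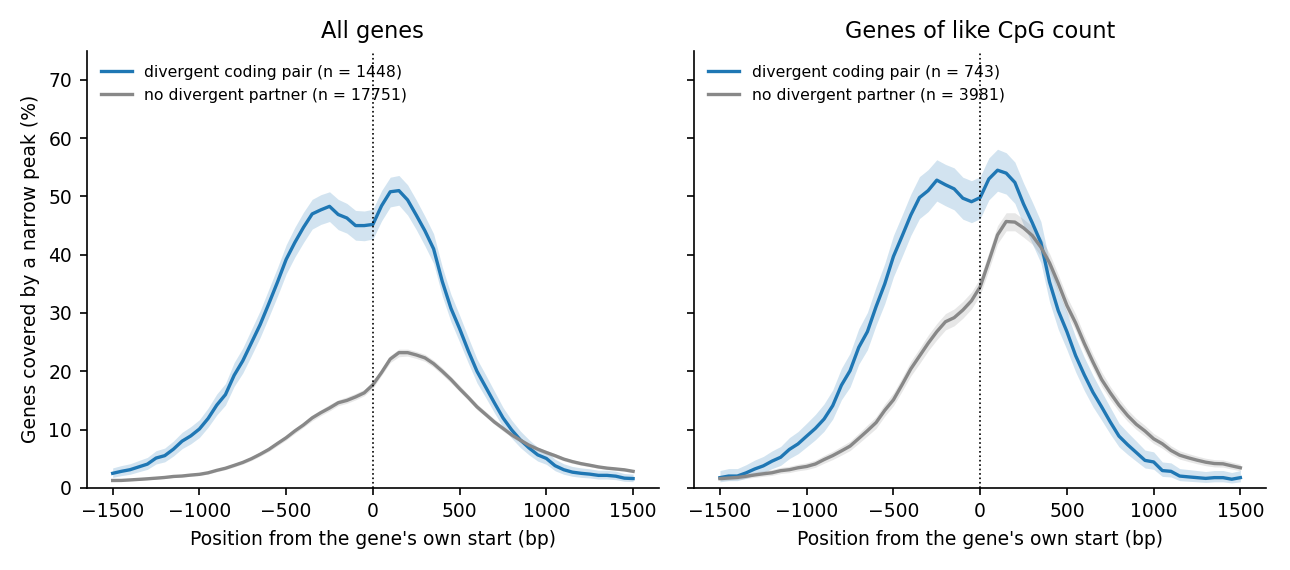
Share of genes, in percent, in which a narrow Mof+/+ peak covers a position, by its distance in bp from the gene's own start (positive is into the gene), for all genes and for genes with 54 to 84 CpG. Lines are shares and bands are 95% Wilson intervals for counting error. Paired genes show a hump on each side of the start, and genes with no partner show a main one 150 to 200 bp inside the gene.

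Seen from the pair, both genes were covered 200 bp inside at 234 of 734 pairs (31.9%). Only the minus-strand gene was covered at 119 pairs (16.2%), only the plus-strand gene at 139 (18.9%), and neither at 242 (33.0%). The strands were thus served about alike. The midpoint between the starts was covered at 330 pairs (45.0%).

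The summit, the base with the most fragments in a peak, lay downstream of a start of the pair in 540 of the 593 peaks (91.1%; 88.5% to 93.1%), in 537 of them inside that gene and in 3 past its annotated end. It was on the minus-strand gene in 258 (43.5%), on the plus-strand gene in 282 (47.6%), and between or at the starts in 53 (8.94%; 6.90% to 11.5%). The median distance into the gene was 226 bp, with an interquartile range of 127 to 376 bp, and it was 217 bp on the minus strand and 230 bp on the plus strand. The most filled class was over 100 and up to 200 bp inside the gene, which held 25.5% of the summits and 15.2% of the bases in the peaks.

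**Figure D3:**
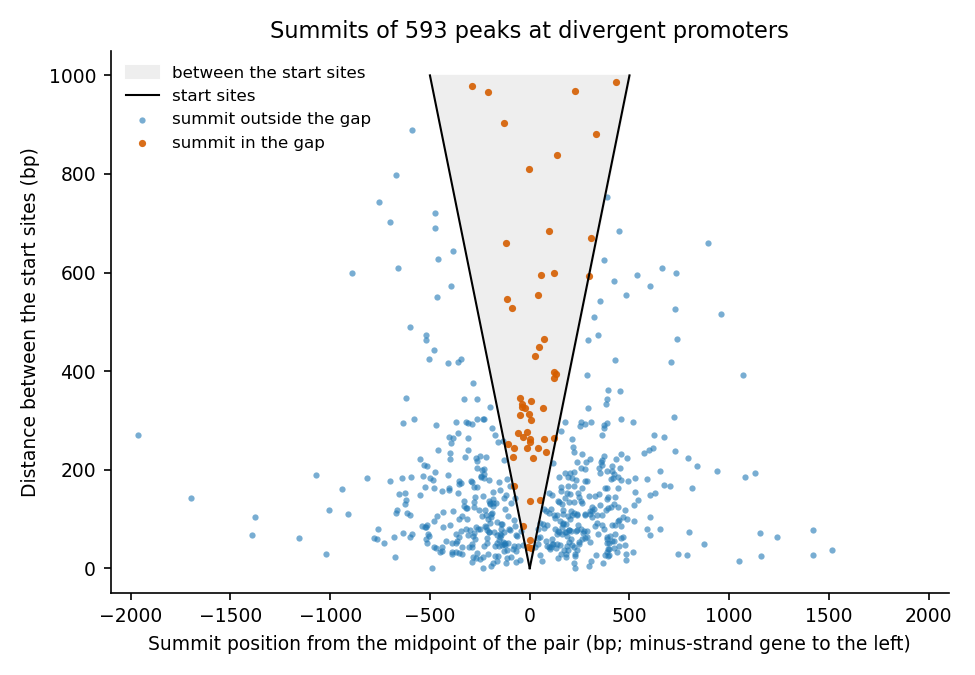
Summit position in bp from the midpoint of the pair against the distance in bp between the starts, 1 point for each of 593 peaks. The grey wedge is the DNA between the starts, and 53 summits are in it or on its edge. Summits flank the wedge on both sides, and where starts are at most 200 bp apart 7 of 420 summits are inside it.

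The gap between the starts was a small target, so summits were set against bases. Of all bases in the peaks, 11.5% lay between the starts, close to the 8.94% of summits there. Where the starts were at most 200 bp apart, the gap held 6.51% of peak bases and 1.67% of summits (7 of 420; 0.810% to 3.40%). Summits were sparse in these short gaps relative to the bases covered. Where the starts were over 300 bp apart, the gap held 30.3% of the bases and 36.0% of the summits (32 of 89; 26.8% to 46.3%), an interval that includes the share of bases.

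At the 5904 narrow peaks at promoters with no divergent partner, 70.8% of summits (69.6% to 71.9%) lay downstream of the start, at a median of 274 bp, and 29.2% upstream. The rule allows divergent-promoter peaks little room upstream, since upstream of either gene is soon the other gene. Only 1.52% of their summits were over 200 bp outside both genes, against 20.7% more than 200 bp upstream at promoters with no partner.

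**Figure D4:**
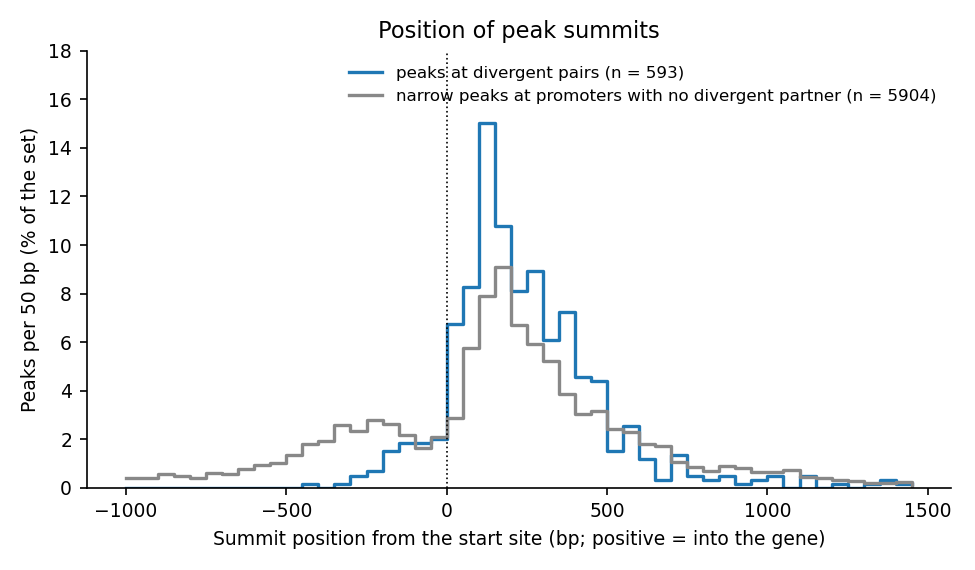
Position of the summit in bp from the start of the gene it lies in or nearest to, in 50 bp classes, as a percent of each set, for 593 peaks at divergent pairs and 5904 narrow peaks at promoters with no partner. The axis leaves out 2 and 132 summits farther away. Both sets are fullest 100 to 200 bp inside the gene, and the comparison set has a second, lower rise upstream.

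Peaks came in several shapes. Both starts were covered by 284 peaks (47.9%), whose median width was 1016 bp. A single start was covered by 78 (13.2%), and neither by 231 (39.0%), whose median width was 456 bp. A pair could hold more than 1 peak. There were 68 pairs with at least 2 peaks, and at 60 pairs separate peaks had their summits on opposite sides. These counts rest on the list as deposited. At 59 of the 60 pairs the peaks were at most 1000 bp apart, and merging peaks that close left 494 narrow peaks and a single pair with at least 2. At Styxl1-Mdh2, with mitochondrial malate dehydrogenase, the peaks had a fold enrichment of 3.32 at 434 bp into Styxl1 and of 4.20 at 475 bp into Mdh2. This pair had a peak on each flank and none over the shared DNA. Others among the 60 were Rnf5-Agpat1, with an acyltransferase of phospholipid synthesis (3.76 and 4.87), Tecr-Dnajb1, with a reductase of very long fatty acids (2.74 and 4.57), and Sdha-Ccdc127, with a subunit of succinate dehydrogenase (3.54 and 3.29). These 4 were picked from the 60 after their values were seen.

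Fold enrichment, here the summit's fragment count over that of the local background with 1 added to each, had a median of 3.76 in the 593 peaks (95% interval of the median 3.66 to 3.82), an interquartile range of 3.20 to 4.42 and a range of 2.26 to 8.85. The 6720 other narrow promoter peaks had a median of 3.76 and an interquartile range of 3.20 to 4.43. The distributions thus lay on each other through their middle, and the 90th percentile was 4.97 in the divergent-promoter peaks and 5.22 in the others. The values go in steps. The summit held a median of 17 fragments (interquartile range 15 to 20, range 11 to 46) over a background that was at its lowest level of 3.52 fragments in 297 of the 593 peaks, where 1 fragment moves the fold by 0.221. At this depth a difference of 0.221 between such peaks is a single fragment.

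Enrichment went with what the peak covered. Peaks over both starts had a median of 3.98 (3.92 to 4.20), and those over neither 3.48 (3.32 to 3.54). It also went with width (Spearman correlation 0.47 over 593 peaks) and weakly with CpG count (0.23), and not with the distance between the starts (0.0062). Points in these correlations share the library and its depth, and a wider peak has more positions from which its summit is taken. The share of pairs with a narrow peak was 75.5% of 306 pairs with starts 1 to 100 bp apart (70.4% to 80%), 78.1% of 96 pairs at over 200 and up to 300 bp (68.9% to 85.2%) and 58.8% of 68 pairs at over 500 bp (47.0% to 69.7%). The rule leaves wide gaps less room, and with peaks of any width the shares were 76.8% at 1 to 100 bp (71.8% to 81.2%) and 69.1% at over 500 bp (57.4% to 78.8%), intervals that overlap.

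The share of pairs with a narrow peak rose with the CpG count around the midpoint. In the pairs with 4 to 55 CpG within 500 bp of it, 54.5% of 191 (47.4% to 61.4%) had a narrow peak within 1000 bp of both starts, and in those with 86 to 148 CpG 86.4% of 184 (80.7% to 90.6%) did. Of 21 pairs with under 20 CpG, 2 had one (9.52%; 2.65% to 28.9%). These were Nt5c3b-Klhl10, with a single peak of 3.95 at the nucleotidase gene Nt5c3b, and Pecam1-Milr1. Pecam1 encodes an adhesion protein of endothelial cells. Its pair had a 2.39-fold peak 593 bp into Pecam1 and a 5.53-fold peak 436 bp into Milr1, a receptor of mast cells. Low-CpG pairs with no peak included Best1-Rab3il1, Nmur1-Tex44, Smyd1-Cd8b1 and Rnf151-Rps2, the last with a gene of the small ribosomal subunit. These 4 were named after their values were seen, and they include Best1, known from the retina, and Smyd1, known from muscle.

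The highest enrichment was at Gart-Son. Gart is a multifunctional enzyme of purine synthesis and Son a protein of nuclear speckles. The peak, chr16:91646197-91648084, reached 8.85-fold with 39 fragments, and its summit lay in the 554 bp between the starts. The next was Tpcn1-Iqcd (chr5:120587553-120588792), at 7.52-fold with 33 fragments. Its summit lay 156 bp from the start of Tpcn1, in an untranslated or noncoding exon of this endolysosomal cation channel gene. Cep57-Fam76b followed at 7.08-fold (chr9:13826349-13827424), with its summit 357 bp into Cep57, in coding sequence of this centrosome gene, and a second peak of 5.31 on the Fam76b side.

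The remaining 7 of the 10 most enriched peaks had values of 5.98 to 6.64. At Rbks-Babam2, a ribokinase gene with a member of a BRCA1 complex, a peak of 6.64 (chr5:31697299-31698724) had its summit in the stretch printed above, which carries an Sp/Klf match. At Spata1-Gng5, with a G protein gamma subunit, the peak of 6.42 (chr3:146499443-146500705) had its summit 218 bp from the start of Gng5, in an intron and outside the printed stretch. At Mepce-Zcwpw1, with the enzyme that caps a small nuclear RNA, the peak of 6.19 (chr5:137785675-137787391) had its summit 1627 bp into Mepce, far from the Znf143 and YY1 letters near the starts. At Slc35a5-Atg3, with the conjugating enzyme of autophagosome formation, the peak of 6.19 (chr16:45158075-45158611) lay on the Slc35a5 side and a second of 4.42 on the Atg3 side, with the E-boxes between them and outside both.

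The other 3 of these 10 were Cep170-Sdccag8, Ap3m1-Adk and Gnptg-Tsr3. At Cep170-Sdccag8, which pairs genes of centrosomal proteins, the peak of 6.15 (chr1:176813153-176815086) had its summit at the start of Sdccag8. At Ap3m1-Adk the adenosine kinase gene Adk held the summit, 154 bp inside, in a peak of 6.08 (chr14:21051854-21053256). At Gnptg-Tsr3 the summit was 149 bp into Gnptg, a subunit of the enzyme that tags lysosomal proteins, in a peak of 5.98 (chr17:25239813-25240290). Of the 10 summits, 3 were between or at the starts and 7 inside a gene.

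Among 17 head-to-head pairs named from general knowledge, 9 met the rule, and 6 of these had a narrow peak, where 74.0% of all 734 pairs did. Besides Gart-Son, these were Wrn-Purg (4.42-fold, 269 bp into the helicase gene Wrn), Mcm4-Prkdc (3.32-fold, in the 466 bp between the starts of a replicative helicase gene and a repair kinase gene), Psmb1-Tbp (3.24-fold, 261 bp into the proteasome gene Psmb1), Sdhd-Timm8b (3.07-fold, 400 bp into Timm8b) and Brca1-Nbr1 (3.00-fold, 253 bp into Nbr1). Except for Gart-Son and Wrn-Purg they were under the median of 3.76. At Brca1-Nbr1 the NF-Y match in the printed stretch was outside the peak, and a second narrow peak there of 2.62 missed the rule by lying 1010 bp from the farther start. Atm-Npat and Mrps12-Sars2 had none.

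The other 8 named pairs have overlapping annotated heads, and 6 had a narrow peak within 1000 bp of both starts, as did 327 of all 436 pairs with overlapping heads (75.0%). They include Psmb9-Tap1 of antigen processing (5.44-fold) and the mitochondrial chaperonin pair Hspd1-Hspe1 with peaks of 5.31 and 4.42. Col4a1-Col4a2, the textbook pair of basement membrane collagens, and Hars-Hars2 had none.

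Genes were also grouped by symbol, to be read against the 73.7% of all paired genes that had a peak. All 7 paired proteasome genes had one, among them Psma7 (5.09-fold at Psma7-Ss18l1), Psma2 (4.09 at Mrpl32-Psma2) and Psme2 (5.34 and 2.79 at Psme2-Rnf31). Of 42 proteasome genes in no divergent pair, 66.7% had a narrow peak. Among respiratory chain genes with their assembly factors the counts were 19 of 22 paired genes (86.4%) and 40 of 69 others (58.0%). Examples were Atp5c1-Kin (4.65-fold) and Ndufa4-Phf14 (4.27-fold, with its summit between the starts). All 4 paired genes of mitochondrial import had a peak, with a median of 3.09, and so did 16 of 20 others (80%).

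Ribosomal genes were on the list as well. Of 18 paired genes of the mitochondrial ribosome, 15 had a peak (83.3%), from 5.40-fold at Ncapd2-Mrpl51 to 2.73-fold at Zfp661-Mrps5, against 44 of 60 others (73.3%). Of 8 paired genes of the cytosolic ribosome, 6 had a peak (75.0%), against 58 of 70 others (82.9%). Rps27-Rab13 was the strongest of them at 5.75-fold. The group shares thus did not all lie on the same side of those of unpaired genes, and with so few paired genes in most groups the counts are small.

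DNA replication and repair genes had a peak at 16 of 22 paired genes (72.7%), near the 73.7% over all 1448 paired genes, and at 44 of 70 others (62.9%). Those with a peak included Orc1 (4.23-fold at Prpf38a-Orc1), a subunit of the origin recognition complex, and Pole (3.15-fold at Pxmp2-Pole), the catalytic subunit of a replicative polymerase. Fancd2, Rad51c, Rad54l and Xrcc1 were among the 6 without. Splicing and RNA processing genes had a peak at 16 of 24 (66.7%) and 50 of 77 others (64.9%), with the splicing factor gene Srsf7 at 5.97-fold in Srsf7-Ttc39d. Paired histone genes were lower, at 16 of 27 (59.3%) against 30 of 40 unpaired ones (75.0%). Of the 11 paired histone genes without a narrow peak, 3 (Hist2h2ab, Hist2h2ac and Hist2h2be) lay under a wide peak of 5.96-fold. Histone genes are near-identical copies, and reads that fit several copies make single histone loci uncertain. Chaperone genes had a peak at 8 of 12 paired genes (66.7%) and 39 of 67 others (58.2%), RNA polymerase subunits at 6 of 9 and 14 of 20, and ubiquitin ligases and proteases at 8 of 15 and 91 of 178. Of 5 paired tRNA synthetase genes 2 had a peak, Yars (5.97-fold at S100pbp-Yars) and Rars2 (3.76-fold at Orc3-Rars2), against 23 of 32 others (71.9%), the opposite order to that over all coding genes.

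**Figure D5:**
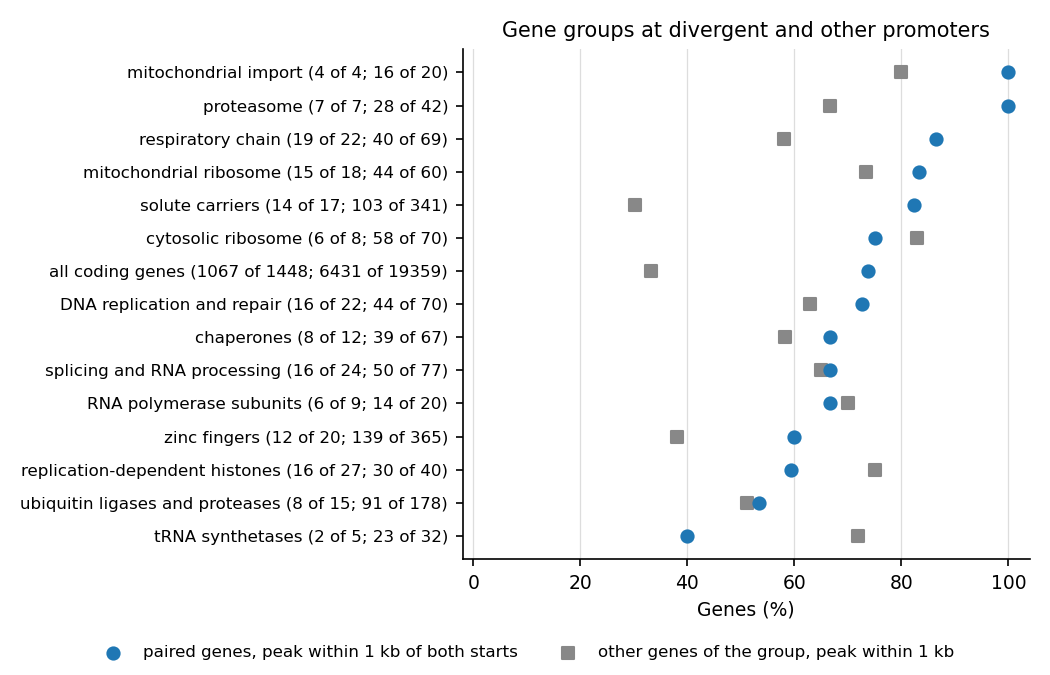
Share of genes, in percent, with a peak in 14 gene groups and in all coding genes. Circles are genes in divergent pairs that have a narrow peak within 1 kb of both starts, squares are the other genes of the group with a narrow peak within 1 kb, and the counts behind each are in brackets. Groups with under 4 paired genes are left out. Over all coding genes the shares are 73.7% and 33.2%, and solute carriers lie near both with 82.4% and 30.2%.

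Paired genes with a solute carrier symbol, Slc7a6os included, had a peak at 14 of 17 (82.4%) against 103 of 341 others (30.2%). Zinc finger genes had one at 12 of 20 (60%) against 139 of 365 (38.1%). Of 26 adipocyte lipid genes only Acaca, which encodes an acetyl-CoA carboxylase, was in a divergent pair. Its partner is Tada2a, and the peak of 2.66-fold with 12 fragments lay 597 bp into Tada2a. The collagen pair Col4a3-Col4a4 had no peak, and the symbol Col4a3bp in that group names a ceramide transfer protein and not a collagen. None of 1128 olfactory receptor genes was in a divergent pair.

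None of the 12 adipocyte marker genes was in a divergent pair, and 6 of them had a Mof+/+ peak within 1 kb. For B cells and T cells 4 of 5 markers each had one, with Cd79b at 7.30-fold, and for macrophages, endothelial cells and mesothelial cells 1 of 5 each. Over all coding genes the share was 39.6%. The tissue held cells of several kinds, and their part in these peaks was not tested. Of 9 MSL and NSL subunit genes on these chromosomes, 8 had a peak, Kat8 itself at 4.20-fold, and none was in a divergent pair.

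The DNA under the summits was near that of other narrow promoter peaks in GC and CpG content, and higher in 2 of the motifs searched. Within 150 bp of the summit the median GC content was 62.5% in the divergent-promoter peaks and 63.1% in the others, with 22 and 23 CpG. The chromatin was cut with an enzyme that recognises RGCY, where R stands for a purine and Y for a pyrimidine, and these sites numbered 26.6 and 29.9 per kb. Sp/Klf letters were in 50.6% and 50.4% of the windows. YY1 letters were in 6.07% (4.42% to 8.29%) and 3.78% (3.35% to 4.26%), and ETS letters (CCGGAAG) in 15.5% (12.8% to 18.6%) and 11.6% (10.9% to 12.4%). In neither motif do the intervals overlap. At promoters with no partner, most of the comparison, more summits lay far upstream of the start. The part of summit position in these shares was not tested. Windows of this length at starts of genes with no divergent partner and a narrow peak had 6.5% YY1 and 19.8% ETS letters.

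Motifs were denser at the midpoint of the pair than at the summit. At the midpoints of the 543 pairs with a peak, 29.8% of the windows of the same length had ETS letters, 43.3% NF-Y, 70.2% Sp/Klf, 9.58% YY1, 6.81% Znf143 and 5.34% Nrf1 (GCGCATGCG). The starts of all 20807 coding genes had 11.7%, 36.2%, 46.3%, 3.56%, 3.32% and 2.11%. The nearer comparison is with the midpoints of the 170 pairs without any peak, which had 25.3%, 48.2%, 63.5%, 4.71%, 3.53% and 2.94%. TATA letters (TATAAA) were in 4.24% of the midpoints with a peak, in 4.71% of those without and in 10.7% of all coding starts. Starts of genes with no divergent partner and a narrow peak had 4.74% TATA, 68.9% Sp/Klf, 35.1% NF-Y, 19.8% ETS and 6.5% YY1, so the values for TATA and Sp/Klf were near those at the pairs. Pairs with YY1 letters had a narrow peak in 52 of 61 cases (85.2%; 74.3% to 92.0%) and pairs without them in 73.0% of 673 (69.5% to 76.2%). For Znf143 the values were 37 of 43 (86.0%; 72.7% to 93.4%) and 73.2% of 691 (69.8% to 76.4%). These were the motifs with the widest difference among the 10, and the intervals overlap in both. With NF-Y letters the share was 71.9% and without them 75.7%, and for the E-box it was 73.8% and 74.0%. CpG count differed as well, with a median of 26 in the midpoint windows with a peak and 19 in those without, and its part in these shares was not tested.

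Very few of the peaks met a Mof+/- peak. The Mof+/- list had 712 peaks on these chromosomes, and 4 of the 593 divergent-promoter peaks overlapped one (0.675%; 0.263% to 1.72%). Over all 7313 narrow coding promoter peaks the share was 1.56%, and over the 6720 others it was 1.64% (1.36% to 1.97%), so the intervals overlap and no difference was resolved. The Mof+/- list is far shorter throughout, and a peak missing from it may have stayed under its threshold.

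The 4 pairs were Wrap53-Trp53, Osgep-Apex1, Hdlbp-Sept2 and Pusl1-Acap3. At Wrap53-Trp53, which pairs a telomerase-associated gene with the p53 gene, the Mof+/+ peak (chr11:69580466-69581839) was 4.44-fold enriched and the Mof+/- peak inside it (chr11:69580559-69581053) 4.60-fold, with summits 100 bp apart in Trp53. A second Mof+/+ peak at this pair, 3.98-fold and 1326 bp into Wrap53, had no counterpart. At Osgep-Apex1, a tRNA modification gene with a base excision repair nuclease gene, the values were 4.42 (chr14:50924635-50925832) and 3.71 (chr14:50924940-50925297), with summits 32 bp apart in Apex1.

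At Hdlbp-Sept2 the Mof+/+ peak (chr1:93477922-93479589, 4.20-fold) had its summit 526 bp into the septin gene Sept2, and the Mof+/- peak (chr1:93478571-93479065, 3.99-fold) had its summit 116 bp into Hdlbp, 791 bp away. At Pusl1-Acap3 the values were 3.58 (chr4:155891592-155892605) and 3.78 (chr4:155891905-155892189), with summits 216 bp apart in Acap3. All 4 Mof+/- peaks lay wholly within the Mof+/+ peak, and were 285 to 495 bp wide where the Mof+/+ peaks were 1014 to 1668 bp wide. Fold enrichments of the lists rest on separate libraries and are given side by side without a comparison.

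Peaks of 2000 bp and over were left out by the rule. There were 22 at divergent pairs, 2015 to 4174 bp wide, with a median fold enrichment of 5.53, and 3 of them (13.6%; 4.75% to 33.3%) overlapped a Mof+/- peak, against 16.9% of the 724 wide peaks at all coding promoters. Of the 22, 5 were at genes of heterogeneous nuclear ribonucleoproteins, RNA-binding proteins of splicing and transport, a group noticed after the values were seen. Such genes were in 6 of the 734 pairs, and a wide peak lay at 23 of the 734 (3.13%). The 5 were Hnrnpa2b1-Cbx3 (7.30-fold), Hnrnph3-Pbld2 (5.75), Ttc9c-Hnrnpul2 (5.53), Hnrnpdl-Enoph1 (5.47) and Cbx5-Hnrnpa1 (4.42), and the other such pair, Hnrnpd-4930524J08Rik, had a narrow peak of 4.42. The 5 genes are counted among the RNA processing genes without a narrow peak above. The strongest wide peak was at Ddx5-Cep95, with the RNA helicase gene Ddx5, at 8.97-fold.

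At the edges of the rule, the widest peak that was kept, at Sart3-Iscu, spanned 1990 bp (3.98-fold), and the narrowest that was left out spanned 2015 bp (4.25-fold). The farthest kept peak, at Nek8-Tlcd1, was 987 bp from a start (4.65-fold). The closest starts were 1 bp apart, at Slc7a6os-Prmt7 with a peak of 5.31 and at Bag4-Lsm1 with 2 peaks of 3.98, and Btf3l4-Txndc12 had them 987 bp apart and a peak of 5.09. Gpr108-Trip10, with starts 1009 bp apart, missed the rule with a peak of 4.42. The least significant kept peak, at Rpgrip1l-Fto with the demethylase gene Fto, was 2.38-fold enriched with 13 fragments and a −log10 q of 1.02.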

How the data were processed

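The submitters' labels describe 12 libraries from 2 genotypes. The authors mapped reads with snakePipes to GRCm38 and called peaks against input using MACS2 2.1.1.20160309.3 at a q-value threshold of 0.1. The labels and the study's reporting summary give 2 animals per genotype, while the design text speaks of 3 for Mof+/-. A merge of peaks at a distance of 1000 bp is part of the authors' methods, but neighbours closer than that remained in the Mof+/+ list, which was used as deposited. Whether replicates were pooled before peak calling is not given in the sources used here. In the deposited lists, fold enrichment is a ratio of fragments over the summit to local background, and the −log10 p-value and, in a column of its own, the −log10 q-value at the summit are deposited as the authors' peak caller wrote them. The summit offset served as a coordinate. Of the value columns, 1 per list was not used. The lists hold no columns of comparisons between genotypes.

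Start sites were the ends of GENCODE M21 gene models, and sequence was GRCm38 patch 6, with coordinates counted from 1. Distances were measured from the nearest end of a peak. Peaks shared at least 1 bp to overlap. A gene belongs to a pair through its outermost annotated start. Fragments at the summit were solved from the fold enrichment, taken as fragments plus 1 over background plus 1, and the Poisson p-value, to within 0.01 in −log10, for all 593 peaks. These fragments are the depth known for a peak, since totals per library were not used here. Shares have 95% Wilson intervals and medians order-statistic intervals (scipy 1.17.1, numpy 2.4.6, Python 3.11.15), which cover counting error only, and treat neighbouring regions of 1 list as if independent. No test was run over peaks or genes, as there is 1 list per genotype. Scripts were tested on simulated data.

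The peaks, gene lists, motifs and comparisons were chosen with earlier results of these data known. Named pairs were 17 textbook pairs, the 10 peaks with the highest fold enrichment, every peak that overlapped a Mof+/- peak, those nearest each limit, the pairs with the closest and farthest starts, and MSL and NSL subunits, with gene groups set by symbol. Motif letters were searched on both strands. Alternatives changed the q-value, distance, width and gap limits, the starts used, merging of peaks within 1000 bp, and the overlap. Signal tracks and H3 libraries were not analysed here. A few pairs that this rule names are not reported here.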

Additional observations from a re-analysis of the deposited data

How the results depend on the processing

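Of 47 alternative values, 35 stayed inside the reported value's interval or, for the number of peaks, within 1.5 times of it. A q-value of at most 0.01 gave 67.0% of pairs with a peak and a median fold enrichment of 3.87 (3.98 at other promoters), and one of at most 0.001 gave 54.5% and 4.07. A width under 1000 bp gave 51.0% of pairs, a median of 3.54, 6.55% of summits between the starts and 0% overlapping a Mof+/- peak. Starts at most 500 bp apart also gave 6.55% between the starts. With 50% of the peak to be covered, 0% overlapped a Mof+/- peak. Among other coding genes limited to the CpG range of the paired genes, 59.1% had a narrow peak. The number of peaks ranged from 412 with a width under 1000 bp to 865 with every coding transcript start, where 797 of 1066 pairs (74.8%) had one. The summit position in short gaps, the CpG classes and the midpoint windows were added after seeing the data. No paired analysis was possible because a single list stands for each genotype and its columns carry no replicate number, so no replicate could be left out either. At 11 to 46 fragments a summit, small differences in fold enrichment between single peaks cannot be resolved.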
